A study of Mus musculus with 10 samples.

Results

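The 44 genes described here encode proteins that cells make while they copy their DNA and divide. They were taken by gene name from a list of replication (G1/S) and mitosis (G2/M) genes, and all 44 were found among the 22548 genes of the RNA sequencing table. The libraries came from osteocyte preparations of the bone of male C57BL/6 mice, 8 weeks old by the labels. In the myeloma group (MM, n = 5, mice 6 to 10), Vk12598 cells, a murine myeloma line, had been injected into the femur. Mice given no myeloma cells were the controls (No MM, n = 5, mice 1 to 5), and the paper's methods state that controls received PBS by injection. The paper describes mice aged 6 to 8 weeks and an assessment 6 weeks after injection, so the labelled age may not be that at collection. Each library was made from total RNA of 1 mouse, from cells released by repeated EDTA and collagenase digestion of bone pieces after the marrow had been removed, so every preparation was a mixture and the p-values measure the spread between mice.

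Entry into S phase is driven by E2F transcription factors and by cyclin E with the kinase CDK2. The E2F factors switch on the genes for origin licensing, the replicative helicase and nucleotide supply. Later, FOXM1 and the MuvB and B-MYB complex switch on the genes for mitotic cyclins, kinases, the kinetochore and the spindle. Osteocytes are terminally differentiated cells embedded in mineral and are not known to divide, whereas erythroblasts, neutrophil precursors and B cell precursors of the marrow divide fast. In such bulk samples, fewer cells of a type and less RNA per cell cannot be told apart.

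Many promoters of these genes hold short motifs in the reference, and 3 stretches are shown that carry the motif types searched for. These types were found at different shares in the mitotic and the replication genes, and no type was confined to 1 of the 2. RefSeq promoters of build GRCm38.p6, from 250 bases before to 50 bases after the start, matched 36 of the 44 genes by symbol. The genes with no entry were Aurkb, Tpx2, Kif20a, Mcm4, Ccna2, Ccne2, Foxm1 and Gins2. The motifs searched on both strands were the cell cycle homology region CHR (TTTGAA or TTTAAA), the CCAAT box (CCAAT) and the E2F site (TTTCCCGC or TTTGGCGC or TTTGCCGC or TTTCGCGC). No motif type contains another, and matches of one type may overlap each other. Capitals mark the matches within each stretch, printed 5′ to 3′ along the gene. The Mki67 stretch lies 200 to 81 bases before the start (chr7:135716460-135716579, minus strand), and the Top2a (chr11:99024190-99024309, minus strand) and Mcm6 (chr1:128359706-128359825, minus strand) stretches hold the 120 bases before it.
Mki67: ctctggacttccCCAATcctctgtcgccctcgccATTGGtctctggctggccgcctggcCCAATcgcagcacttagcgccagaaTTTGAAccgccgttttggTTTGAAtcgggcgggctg
Top2a: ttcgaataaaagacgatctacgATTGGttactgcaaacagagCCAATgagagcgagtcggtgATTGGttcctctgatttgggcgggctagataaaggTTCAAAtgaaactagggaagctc
Mcm6: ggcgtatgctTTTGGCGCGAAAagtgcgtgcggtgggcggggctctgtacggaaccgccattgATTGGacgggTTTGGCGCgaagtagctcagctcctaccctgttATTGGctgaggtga

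CHR matches were present in 19 of 21 G2/M genes (90.5%) and 6 of 15 G1/S genes (40.0%), against 30.6% of the 27025 genes with a promoter. For E2F matches the shares were 1 of 21 G2/M genes (4.76%), 6 of 15 G1/S genes (40.0%) and 2.61% of all. The CCAAT box was found in 18 of 21 (85.7%), 9 of 15 (60.0%) and 41.1%. These shares describe letters in a window, not bound sites, and the list was assembled from genes known to follow these phases.

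The libraries held 31099174 to 39466332 counts assigned to genes, and each of the 44 genes had between 285 and 49970 counts in every library, so counting error was small beside the spread between mice. Levels are given as CPM (a gene's counts as a share of its library's total over the tested genes), with these totals scaled for composition by the trimmed mean of M-values (TMM). Percentages of counts are instead taken of all counts of a library, without scaling. All 7 osteocyte markers (Dmp1, Sost, Mepe, Phex, Fgf23, Pdpn and Dkk1) were detected in every library, with a summed level of 317 to 2493 CPM. The preparations also held transcripts of other cells. Immunoglobulin genes took 26.6% of counts in No MM 3 and 29.0% in No MM 4, against 0.637% to 3.86% in the other 8 libraries. In No MM 3 and No MM 4, the plasma cell list summed to 9265 and 9283 CPM (583 to 1266 elsewhere), and the erythroblast list to 165 and 857 CPM (1357 to 8304 elsewhere). Their osteoblast list stood at 1635 and 959 CPM, against 6057 to 24456 elsewhere.

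For no gene of the 44 did the difference between MM and No MM pass the test. At an edgeR adjusted p under 0.05, 0 of 44 were called, as were 0 of all 16186 genes tested (0%). At an unadjusted p under 0.05, 0 were higher and 0 lower in MM, where 3.81% of all tested genes were higher and 10.3% lower. DESeq2 called 0 of the 44 at an adjusted p under 0.05, and 207 of 17638 genes (1.17%) with an adjusted p. In 0 of 44 genes did the 5 MM values lie wholly above or below the 5 No MM values, which 1.41% of all tested genes did. Exact two-sided permutation p-values over every way to assign the 10 mice to groups of 5 ran from 0.111 to 1, and 5 against 5 mice can reach 0.00794.

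Fold changes were small and mixed in sign. The log2 fold change of MM over No MM was above 0 in 14 genes and below 0 in 30, from -0.65 for Mcm6 to 0.49 for E2f8. Their median was -0.084, against -0.027 for all tested genes. The 95% intervals of 34 genes lay wholly within a 2-fold change either way, and the interval bounds over all 44 ran from -1.35 to 1.24, so that for the other 10 genes the interval reached past a 2-fold change. When libraries were scaled by total counts only, the median of all genes moved up by 0.33 and 42 of the 44 genes had a positive fold change. Relative to the median of all genes, the 44 stood at -0.057 with TMM and at -0.059 with total counts.

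**Figure D1:**
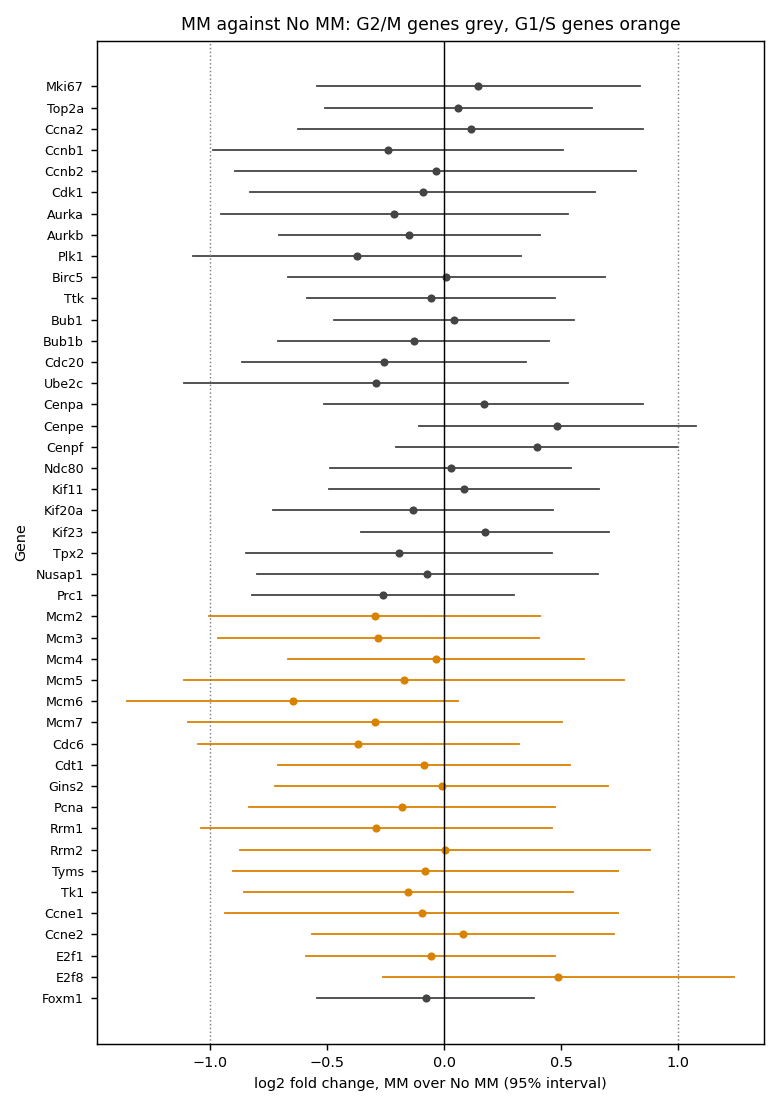
Log2 fold change of MM over No MM (x axis) for each of the 44 genes (y axis, in role order), with points for edgeR estimates and lines for 95% intervals, and dotted lines at a 2-fold change. All 44 intervals cross 0, with Mcm6 lowest at -0.65 and E2f8 highest at 0.49.

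Single mice stood apart from the rest in most of the 44 genes. MM 6 had the lowest level of all 10 libraries in 42 of 44 genes, whereas it was lowest for 13.5% of all tested genes. Within MM it was the lowest in 44 of 44, against 34.9% of all tested genes. The ratio of MM 6 to the median of the other 4 MM mice lay between 0.315 (Ccne1) and 0.530 (Foxm1), with a median of 0.421. The exceptions to the lowest place were Cenpa and E2f8, which were lower in No MM 3. No MM 1 was the highest library in 32 genes (19.8% of all tested genes), and MM 10 in 11 genes (7.41% of all tested genes), namely Mki67, Top2a, Ttk, Bub1, Cenpe, Cenpf, Ndc80, Kif11, Kif23, Ccne2 and E2f8. Foxm1 was highest in No MM 3. The median gene length was 3691 bases for the genes highest in MM 10 and 2963 bases for those highest in No MM 1. The Spearman correlation of log2 fold change with gene length was 0.21 over the 44 genes and 0.19 over all tested genes. The part of gene length in these patterns was not tested.

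Averaged over the 44 genes, the log2 CPM was 7.17, 6.60, 6.29, 6.21 and 6.28 in No MM 1 to 5 and 5.43, 6.50, 6.66, 6.78 and 6.79 in MM 6 to 10. The group means were 6.51 ± 0.40 (SD, n = 5) in No MM and 6.43 ± 0.57 in MM, and 6.68 ± 0.14 in the 4 MM mice other than MM 6. Leaving out the lowest MM mouse raises that mean and narrows its spread by construction. The 4 other MM mice lay close together, below No MM 1 and, apart from MM 7, above the other controls. Together the 44 genes took 0.287% of all counts in MM 6 and between 0.331% and 0.765% in the other libraries. The G2/M and the G1/S genes stayed close to each other in level: the mean log2 CPM of the former minus that of the latter stayed between -0.29 (No MM 1) and 0.13 (No MM 5).

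**Figure D2:**
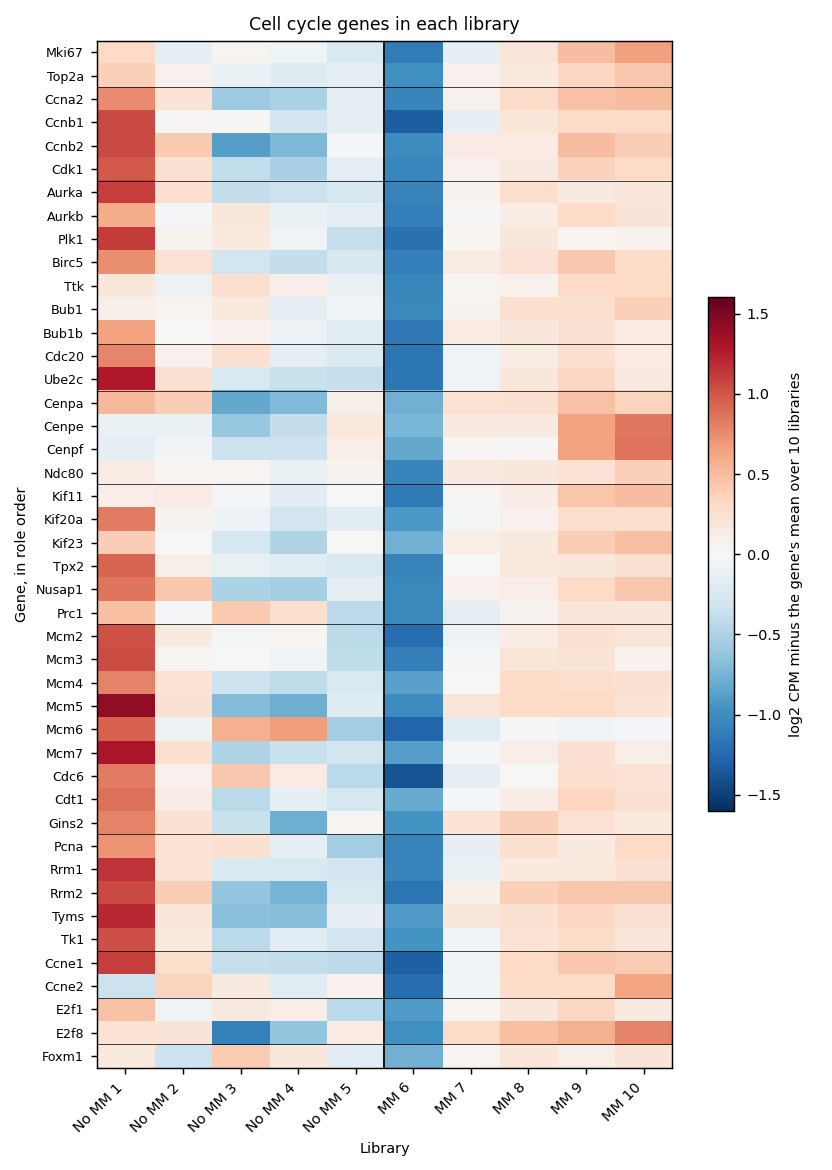
Log2 CPM of each of the 44 genes (rows, in role order) in each library (columns, No MM left of the line, MM right), after subtraction of the gene's mean over the 10 libraries. MM 6 is the bluest column in nearly every row, lowest in 42 of 44 genes, and No MM 1 is the reddest in 32.

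Lists of marrow cell markers also varied between the libraries. The erythroblast list of 10 genes, all detected in every library, summed to 1357 CPM in MM 6 and 2726 to 4514 CPM in the other MM mice, and was highest of all in No MM 1 at 8304 CPM. The neutrophil precursor list of 7 genes summed to 908 CPM in MM 6 and 1930 to 2740 CPM in the other MM mice, and reached 3510 CPM in No MM 1. It was lower than in MM 6 in No MM 3 (537 CPM) and close to it in No MM 4 (986 CPM). The pro-B and pre-B cell list summed to 15.2 CPM in MM 6 and 32.9 to 113 CPM in the other MM mice, with Vpreb2 and Rag2 at 0 in some libraries. It was lower still in No MM 3 (2.68 CPM) and No MM 4 (14.9 CPM), and No MM 1 (93.5 CPM) was not the highest, since No MM 5, MM 9 and MM 10 stood at 103, 113 and 95.8 CPM. The stem and progenitor list was not low in MM 6 (121 CPM, with 109 to 151 CPM in the other MM mice). The mature neutrophil list was low in MM 6 too, at 6655 CPM, with 14948 to 21550 CPM in the other MM mice. So was the megakaryocyte list, at 374 CPM, with 837 to 1780 CPM in the other MM mice. The osteoclast and skeletal muscle lists were higher in MM 6, at 6786 and 4238 CPM. In the other MM mice these lists summed to 1774 to 3931 and 458 to 1429 CPM. How closely each list followed the 44 genes over the libraries was not tested. MM 6 also had the highest osteoblast list, 24456 CPM against 6057 to 11250 CPM in the other MM mice. The osteoblast list was next highest in No MM 1 (19818 CPM), where the mean of the 44 genes was highest. No MM 5 followed at 19124 CPM. In No MM 3, No MM 4 and No MM 5, the mean log2 CPM of the 44 genes was 6.29, 6.21 and 6.28. The erythroblast list stood at 165, 857 and 2233 CPM in these 3 libraries. The injected myeloma cells are malignant plasma cells. The plasma cell list summed to 906 CPM in MM 6 and 695 to 1266 CPM in the other MM mice. It stood at 583 to 1093 CPM in No MM 1, No MM 2 and No MM 5, and at 9265 and 9283 CPM in No MM 3 and No MM 4. The part of these cell types in the levels of the 44 genes was not tested.

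**Figure D3:**
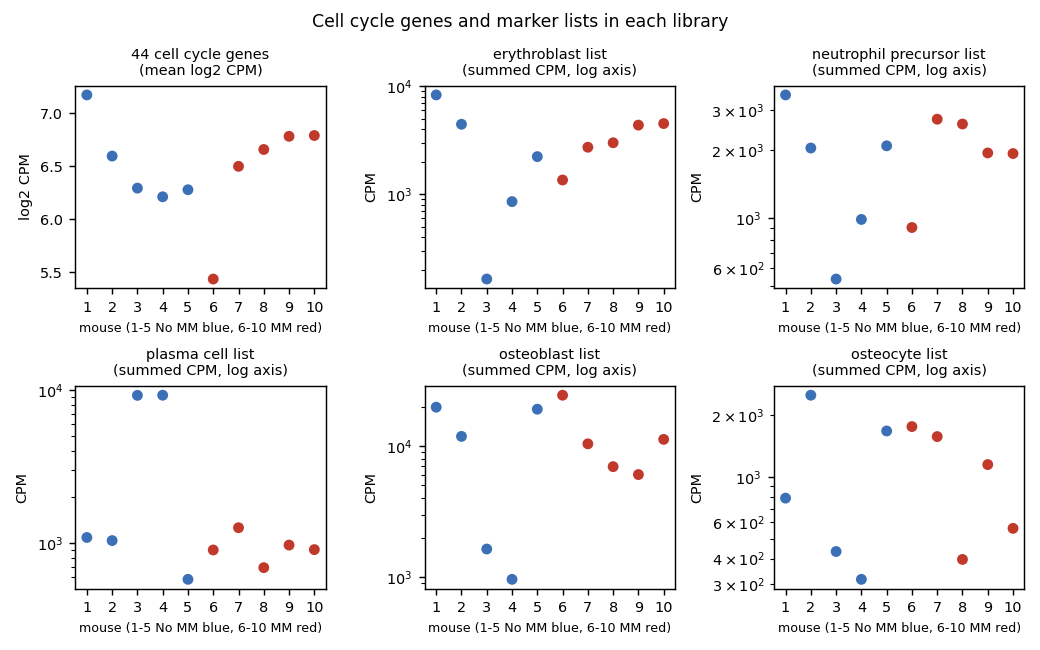
Mean log2 CPM of the 44 genes and summed CPM of 5 marker lists (log axes) in each mouse, with No MM in blue and MM in red. MM 6 is low for the 44 genes and for the erythroblast and neutrophil precursor lists (1357 and 908 CPM), and No MM 3 and 4 are high for the plasma cell list (9265 and 9283 CPM).

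Mki67 (ENSMUSG00000031004, chr7:135689788-135716379, minus strand in the table's annotation) encodes the Ki-67 antigen, the common histological marker of cycling cells. Its level was 1030.0, 739, 849.6, 782 and 694 CPM in No MM 1 to 5 and 379, 750.0, 944, 1159 and 1300.2 CPM in MM 6 to 10. The 3 highest values, in MM 10, MM 9 and No MM 1, came from both groups, and MM 6 had the lowest. The means were 819 ± 131 CPM in the controls against 907 ± 362 CPM in MM (SD, n = 5 each), a log2 fold change of 0.15 with a 95% interval from -0.54 to 0.84 (edgeR adjusted p = 0.853). Mki67 had the highest CPM of the 44 genes, but per kilobase of gene length it ranked 3, at 85.6 CPM per kilobase, behind Pcna (130.2) and Rrm2 (114). Top2a, the topoisomerase that untangles replicated chromosomes, ran from 159.7 CPM in MM 6 to 427 CPM in MM 10, with a log2 fold change of 0.059.

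Among the mitotic cyclins and their kinase, Ccnb2 had the highest level per length and Ccnb1 the smallest p. The 2 genes encode the B-type cyclins that activate CDK1 at mitotic entry. Ccnb1 was at 167, 80.9, 81.0, 65.5 and 71.9 CPM in No MM 1 to 5 and 32.3, 73.4, 91.7, 99.4 and 99.0 CPM in MM 6 to 10. No MM 1 stood above all other libraries, and MM 6 stood below them. The means were 93.3 ± 41.9 CPM in the controls against 79.1 ± 28.2 CPM in MM (SD, n = 5 each), a log2 fold change of -0.24 with a 95% interval from -0.99 to 0.51 (edgeR adjusted p = 0.768). Ccnb2 was at 225, 146, 58.7, 66.0 and 107 CPM in No MM 1 to 5 and 54.0, 119, 118, 153 and 143 CPM in MM 6 to 10, so that No MM 3 and No MM 4 were nearly as low as MM 6. For Ccnb2 the means were 120.4 ± 68.0 CPM in the controls against 117 ± 38.5 CPM in MM (SD, n = 5 each), a log2 fold change of -0.036 with a 95% interval from -0.89 to 0.82 (edgeR adjusted p = 0.976). Cdk1, the mitotic kinase itself, and Ccna2, the cyclin of S phase and G2, had log2 fold changes of -0.092 and 0.11, and both were highest in No MM 1 and lowest in MM 6.

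Of the 7 mitotic kinases, checkpoint and passenger proteins, 2 had a positive and 5 a negative fold change. Birc5 encodes survivin, a subunit of the chromosomal passenger complex, and had the highest level per length. Its values were 217, 152, 105, 98.9 and 108 CPM in No MM 1 to 5 and 60.5, 140.2, 151, 174 and 159 CPM in MM 6 to 10. No MM 1 was highest and the other 4 MM mice lay between No MM 1 and the 3 lowest controls. The means were 136 ± 49.6 CPM in the controls against 137 ± 44.4 CPM in MM (SD, n = 5 each), a log2 fold change of 0.0086 with a 95% interval from -0.67 to 0.69 (edgeR adjusted p = 0.993). Plk1, a kinase of mitotic entry and centrosome maturation, was at 119.9, 57.5, 61.7, 52.8 and 43.0 CPM in No MM 1 to 5 and 24.2, 56.7, 62.9, 57.3 and 57.4 CPM in MM 6 to 10. Apart from No MM 1 and MM 6, the Plk1 values of both groups lay between 43.0 and 62.9 CPM. The means were 67.0 ± 30.4 CPM in the controls against 51.7 ± 15.6 CPM in MM (SD, n = 5 each), a log2 fold change of -0.37 with a 95% interval from -1.07 to 0.33 (edgeR adjusted p = 0.603). The spindle checkpoint kinases Ttk and Bub1 and their partner Bub1b had log2 fold changes of -0.056, 0.042 and -0.13, and the Aurora kinases Aurka and Aurkb of -0.21 and -0.15.

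Cdc20 and Ube2c are partners of the anaphase-promoting complex, Cdc20 as the activator that recognises its mitotic substrates and Ube2c as its ubiquitin-conjugating enzyme. Ube2c was at 319, 156, 111, 102 and 102 CPM in No MM 1 to 5 and 58.8, 127, 149, 165 and 145 CPM in MM 6 to 10. The value in No MM 1 was well above all others, and the other 4 controls and the 4 MM mice other than MM 6 overlapped. The means were 158 ± 92.5 CPM in the controls against 129 ± 41.6 CPM in MM (SD, n = 5 each), a log2 fold change of -0.29 with a 95% interval from -1.11 to 0.53 (edgeR adjusted p = 0.738). Ube2c overlaps the muscle troponin gene Tnnc2 on the opposite strand, and the skeletal muscle list was at 4281 CPM in No MM 1, 4912 in No MM 2 and 4238 in MM 6, against 458 to 3000 CPM in the others. For Cdc20 the values were 108, 66.0, 76.0, 56.6 and 53.9 CPM in No MM 1 to 5 and 28.4, 60.3, 68.5, 75.8 and 69.1 CPM in MM 6 to 10, again with No MM 1 highest and MM 6 lowest. The means were 72.2 ± 22.0 CPM in the controls against 60.4 ± 18.7 CPM in MM (SD, n = 5 each), a log2 fold change of -0.26 with a 95% interval from -0.86 to 0.35 (edgeR adjusted p = 0.682). Cdc20 overlaps Elovl1 on the opposite strand, and Elovl1 had up to 3725 counts in a library, against up to 2900 for Cdc20.

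All 4 centromere and kinetochore genes had a positive fold change, none past the test, but without No MM 3 and No MM 4 Cenpa (-0.20) and Ndc80 (-0.036) were negative. Cenpa encodes the histone H3 variant of centromeres, and Cenpe a kinesin that moves chromosomes to the metaphase plate. Cenpe (chr3:135212563-135273540, plus strand) was at 58.7, 59.0, 41.7, 48.5 and 70.9 CPM in No MM 1 to 5 and 38.2, 70.2, 69.7, 98.7 and 113 CPM in MM 6 to 10. MM 9 and MM 10 were the highest libraries, but MM 7 and MM 8 did not exceed No MM 5, and MM 6 was lowest. The means were 55.8 ± 11.1 CPM in the controls against 78.0 ± 29.1 CPM in MM (SD, n = 5 each), a log2 fold change of 0.48 with a 95% interval from -0.11 to 1.07 (edgeR adjusted p = 0.428). Without MM 6, Cenpe, Cenpf and E2f8 were the 3 of 44 genes higher in MM at an unadjusted p under 0.05, where 5.21% of all tested genes were. Their log2 fold changes were then 0.66, 0.58 and 0.69, and each had an edgeR adjusted p of 0.304. MM 6 was the lowest MM mouse for all 44 genes, so leaving it out raises their fold changes by construction, and nothing is supported by it. Cenpa was at 135, 124, 53.5, 58.0 and 101 CPM in No MM 1 to 5 and 55.8, 111, 112, 131 and 121 CPM in MM 6 to 10, with No MM 3, MM 6 and No MM 4 as the 3 lowest libraries. For Cenpa the means were 94.5 ± 37.4 CPM in the controls against 106 ± 29.3 CPM in MM (SD, n = 5 each), a log2 fold change of 0.17 with a 95% interval from -0.51 to 0.85 (edgeR adjusted p = 0.823). Cenpf and Ndc80, a kinetochore corona protein and a microtubule-binding subunit, had log2 fold changes of 0.40 and 0.027.

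**Figure D4:**
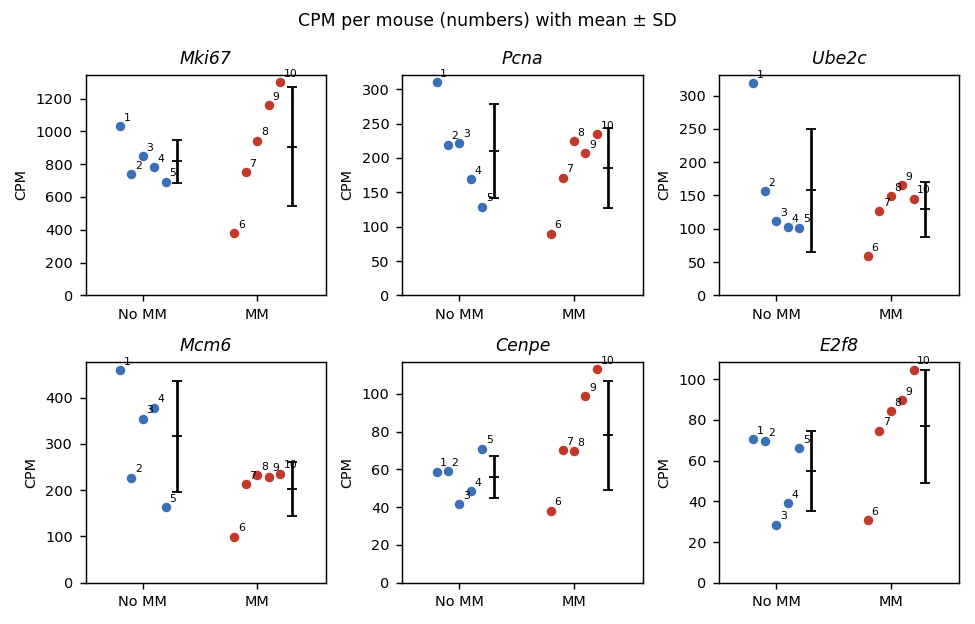
CPM of 6 genes (y axes from 0) in each mouse, numbered as in the text, with No MM in blue, MM in red and the mean ± SD of each group (n = 5) in black. The groups overlap for every gene shown, and MM 6 is the lowest library for all but E2f8, for which No MM 3 (28.5 CPM) lies below MM 6 (30.7 CPM).

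Spindle motors and cytokinesis genes were led by Prc1, which encodes the bundler of the central spindle and had both the highest level per length and the smallest p of its group. Prc1 was at 183, 128, 174, 156 and 97.8 CPM in No MM 1 to 5 and 63.9, 118, 136, 149 and 149 CPM in MM 6 to 10. Here No MM 3 and No MM 4 came next after No MM 1, unlike for Nusap1 or Kif23, for which they were the 2 lowest controls. The means were 148 ± 34.7 CPM in the controls against 123 ± 35.4 CPM in MM (SD, n = 5 each), a log2 fold change of -0.26 with a 95% interval from -0.82 to 0.30 (edgeR adjusted p = 0.649). The kinesins Kif11, Kif20a and Kif23, which drive spindle bipolarity and cytokinesis, had log2 fold changes of 0.084, -0.13 and 0.18, and the spindle assembly proteins Tpx2 and Nusap1 of -0.19 and -0.072.

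All 9 origin licensing and helicase genes had a negative fold change, none past the test, but 6 of the 9 were positive without No MM 1, 4 of the 9 without MM 6 and 8 of the 9 with total counts only, and Gins2 was also positive with RLE and upper-quartile scaling. All 9 were highest in No MM 1 and lowest in MM 6. Without No MM 1, the log2 fold changes of Mcm3, Mcm4, Mcm5, Mcm7, Cdt1 and Gins2 were 0.029, 0.22, 0.37, 0.15, 0.20 and 0.24. Mcm2 to Mcm7 encode the 6 subunits of the replicative helicase, which assemble in equal numbers. Mcm6 (ENSMUSG00000026355, chr1:128331590-128359664, minus strand) was at 459, 227, 355, 379 and 163 CPM in No MM 1 to 5 and 99.3, 213, 233, 229 and 236 CPM in MM 6 to 10. No MM 1, No MM 3 and No MM 4 were above every MM mouse, and No MM 2 and No MM 5 were not. The means were 316 ± 119.7 CPM in the controls against 202 ± 58.1 CPM in MM (SD, n = 5 each), a log2 fold change of -0.65 with a 95% interval from -1.35 to 0.060 (edgeR adjusted p = 0.387), and this was the smallest p of the 44 genes (exact permutation p = 0.111). Mcm7 was at 409, 201, 117, 129.9 and 135 CPM in No MM 1 to 5 and 90.0, 164, 179, 197 and 179 CPM in MM 6 to 10. For Mcm7, in contrast to Mcm6, No MM 3 and No MM 4 were below the other controls. The means were 199 ± 122 CPM in the controls against 162 ± 41.8 CPM in MM (SD, n = 5 each), a log2 fold change of -0.30 with a 95% interval from -1.09 to 0.50 (edgeR adjusted p = 0.724). Mcm7 overlaps Cops6 and Ap4m1 on the opposite strand.

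The level of Mcm6 relative to its partners was highest in the 2 immunoglobulin-rich controls. Per kilobase of gene length, Mcm6 was 2.32 times the median of the other 5 subunits in No MM 3 and 2.55 times in No MM 4. In the other 8 libraries the ratio was 1.09 to 1.30, MM 6 included (1.30). This ratio is taken within a library and does not depend on the scaling between libraries. Without No MM 3 and No MM 4, the log2 fold change of Mcm6 was -0.52 (edgeR adjusted p = 0.665). The other licensing genes, Mcm2, Mcm3, Mcm4, Mcm5, Cdc6, Cdt1 and Gins2, had log2 fold changes of -0.30, -0.28, -0.033, -0.17, -0.37, -0.087 and -0.011. Cdc6 and Cdt1 load the helicase onto origins, and Gins2 belongs to the complex that activates it.

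**Figure D5:**
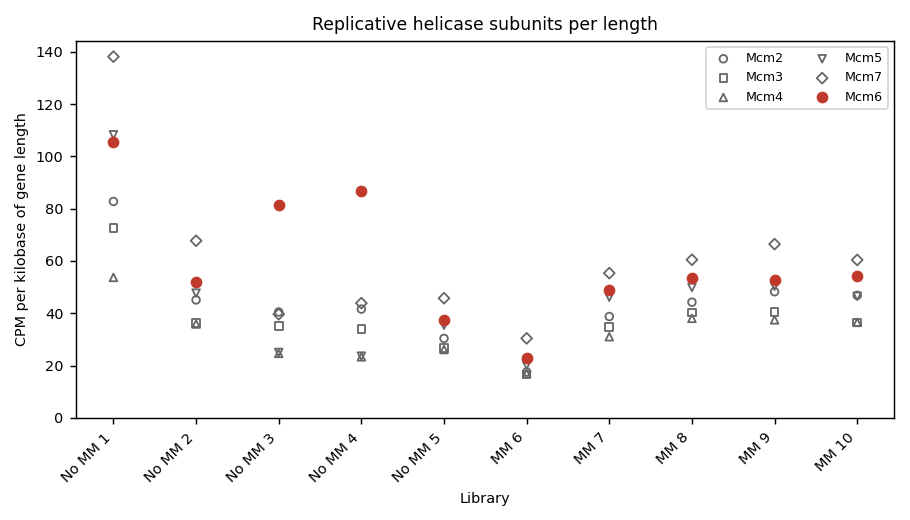
CPM per kilobase of gene length (y axis) of the 6 replicative helicase subunits in each library (x axis), with Mcm6 as filled red points and the other 5 subunits as open grey symbols. Mcm6 lies at 81.4 and 86.9 in No MM 3 and No MM 4, where the highest of the other 5 is at 40.5 and 43.9, and lies below the highest of the other 5 elsewhere.

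Pcna encodes the sliding clamp of the replication fork and had the highest level per length of the 44 genes. Pcna was at 310.3, 219, 222, 169 and 129 CPM in No MM 1 to 5 and 89.6, 172, 224, 207 and 234 CPM in MM 6 to 10. No MM 1 and MM 10 were highest and MM 6 lowest, and the other values of the 2 groups overlapped. The means were 209.9 ± 68.2 CPM in the controls against 185 ± 58.7 CPM in MM (SD, n = 5 each), a log2 fold change of -0.18 with a 95% interval from -0.83 to 0.48 (edgeR adjusted p = 0.803). Rrm1, the large subunit of ribonucleotide reductase, was at 539, 281, 204, 204 and 198 CPM in No MM 1 to 5 and 116, 224, 269, 272 and 286 CPM in MM 6 to 10. Rrm1 had almost equal values in No MM 3, No MM 4 and No MM 5, all below the 4 MM mice other than MM 6. The means were 285 ± 146 CPM in the controls against 233 ± 69.8 CPM in MM (SD, n = 5 each), a log2 fold change of -0.29 with a 95% interval from -1.04 to 0.46 (edgeR adjusted p = 0.711). Rrm2, the small subunit, and the thymidylate enzymes Tyms and Tk1 had log2 fold changes of 0.0021, -0.081 and -0.15.

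The E-type cyclins, which drive S phase entry with CDK2, were lower than most members per length. Ccne1 was at 100.4, 56.4, 36.2, 35.4 and 34.8 CPM in No MM 1 to 5 and 18.8, 44.8, 58.3, 62.8 and 61.5 CPM in MM 6 to 10. Its value in MM 6 was 0.315 of the median of the other MM mice. The means were 52.6 ± 28.2 CPM in the controls against 49.2 ± 18.4 CPM in MM (SD, n = 5 each), a log2 fold change of -0.10 with a 95% interval from -0.94 to 0.74 (edgeR adjusted p = 0.924). Ccne2 was at 25.5, 41.4, 35.7, 28.6 and 34.0 CPM in No MM 1 to 5 and 13.9, 31.5, 39.6, 39.9 and 49.98 CPM in MM 6 to 10. Unlike most of the 44 genes, Ccne2 was lower in No MM 1 than in the other controls. The means were 33.0 ± 6.22 CPM in the controls against 35.0 ± 13.5 CPM in MM (SD, n = 5 each), a log2 fold change of 0.082 with a 95% interval from -0.56 to 0.73 (edgeR adjusted p = 0.914). Ccne2 overlaps Ints8 on the opposite strand, and Ints8 had up to 1945 counts in a library, against up to 1921 for Ccne2.

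E2f8 encodes an atypical E2F factor that represses E2F targets in late S phase, and it had the highest fold change. E2f8 (chr7:48866429-48881596, minus strand) was at 70.6, 69.5, 28.5, 38.9 and 66.0 CPM in No MM 1 to 5 and 30.7, 74.6, 84.2, 89.6 and 105 CPM in MM 6 to 10. The 4 MM mice other than MM 6 were above all 5 controls, while MM 6 was below all but No MM 3. The means were 54.7 ± 19.6 CPM in the controls against 76.7 ± 27.9 CPM in MM (SD, n = 5 each), a log2 fold change of 0.49 with a 95% interval from -0.26 to 1.24 (edgeR adjusted p = 0.516). Without No MM 3 and No MM 4, the log2 fold change of E2f8 was 0.14 (edgeR adjusted p = 0.879). E2f1, an activating E2F, had a log2 fold change of -0.057. Foxm1, the transcription factor of the G2/M genes, was at 62.5, 44.6, 74.5, 63.6 and 49.8 CPM in No MM 1 to 5 and 32.9, 58.1, 64.2, 59.8 and 64.5 CPM in MM 6 to 10. It was the only one of the 44 genes for which No MM 3 and No MM 4 were the 2 highest controls, a pattern of 30.4% of all tested genes. The means were 59.0 ± 11.9 CPM in the controls against 55.9 ± 13.2 CPM in MM (SD, n = 5 each), a log2 fold change of -0.078 with a 95% interval from -0.54 to 0.39 (edgeR adjusted p = 0.887). Foxm1 overlaps 4933413G19Rik on the same strand, a gene with at most 45 counts in a library.

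For 18 of the 44 genes (11 G2/M and 7 G1/S), No MM 3 and No MM 4 were the 2 lowest controls, a pattern of 29.7% of all tested genes. They were Aurka, Birc5, Ccna2, Ccnb2, Cdk1, Cenpa, Cenpe, Cenpf, E2f8, Gins2, Kif11, Kif23, Mcm4, Mcm5, Mcm7, Nusap1, Rrm2 and Tyms. With these 2 libraries left out, 7 genes had a positive and 37 a negative fold change, with a median of -0.33, and again 0 of 44 were called at an edgeR adjusted or unadjusted p under 0.05. With MM 6 left out, the median was 0.087, with 30 genes positive and 14 negative and 0 called at an adjusted p. With No MM 1 left out it was 0.14, with 35 positive and 9 negative and 0 called. MM 6 was the lowest MM mouse in 44 of 44 genes and No MM 1 the highest control in 37. Leaving out either thus raises most fold changes by construction. The sign of the median turned on single mice, and no direction is given for the 44 genes.

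Other cell cycle genes were read from the same fit. Of 130 genes in 10 lists, 0 were called at an edgeR adjusted p under 0.05, and at an unadjusted p 1 was higher (0.769%) and 7 were lower in MM (5.38%). Both shares were below those of all tested genes, 3.81% and 10.3%. Over the 130, the median log2 fold change was -0.034. MM 6 was the lowest library for 85 of them (65.4%, against 13.5% of all tested genes). By list, MM 6 was lowest for 26 of 29 other passenger, condensin and spindle genes and 14 of 16 other kinetochore and checkpoint genes. The same held for 19 of 20 genes in the list of replicative polymerases and ligase. That list also holds Fen1, Rpa1, Rpa2, Rfc3, Rfc4, Rfc5, Chaf1a, Chaf1b, Uhrf1 and Dut. MM 6 was also lowest for 6 of 7 mitotic entry and checkpoint kinase genes and 9 of 14 origin genes. It was lowest for 4 of 10 retinoblastoma family and MuvB genes and 2 of 6 D cyclins and G1 kinases. In the anaphase-promoting complex list, which also holds Fzr1, Ube2s and Fbxo5, it was lowest for 3 of 15 genes. For other E2F factors it was 1 of 6, and for CDK inhibitors 1 of 7. Differences between the lists were not tested.

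Ccnd2, the D cyclin that links growth factor signals to CDK4 and CDK6, was at 85.9, 137, 1407, 1019 and 95.2 CPM in No MM 1 to 5 and 96.7, 103, 291, 91.5 and 117 CPM in MM 6 to 10. The 2 immunoglobulin-rich controls were far above the other 8 libraries. Its log2 fold change was -1.97 (edgeR adjusted p = 0.332) with all libraries and 0.38 without those 2. Cdkn2b, an inhibitor of CDK4 and CDK6, showed the same split with 24.7 and 10.7 CPM in No MM 3 and No MM 4 and 1.21 to 3.31 CPM elsewhere. Wee1, the kinase that restrains CDK1, was at 33.9 and 35.4 CPM in these 2 libraries and at 9.42 to 17.1 CPM elsewhere. Rbl2, the p130 pocket protein of resting cells, was the 1 gene of the 130 that was higher in MM at an unadjusted p under 0.05, and it did not pass at an adjusted p. Its values were 42.1, 64.4, 40.0, 42.4 and 67.8 CPM in No MM 1 to 5 and 67.0, 72.0, 72.0, 65.8 and 67.1 CPM in MM 6 to 10. The Rbl2 values of MM lay close together, above No MM 1 to 4 and overlapping No MM 5. The log2 fold change was 0.42 (edgeR adjusted p = 0.333).

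The remaining genes lower in MM at an unadjusted p were Pold2, Bub3, Anapc13 and Anapc11. The genes with the smallest p in the other lists were E2f4 (0.22), Orc2 (-0.25) and Smc4 (0.43), given as log2 fold changes. Without No MM 3 and No MM 4, none of the 8 genes past an unadjusted p of 0.05 remained past it.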

How the data were processed

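Total RNA libraries (TruSeq Stranded, paired-end) were made by the authors from 10 mice, 1 per mouse. The submitters' processing notes name FastQC 0.11.5 and STAR. The counting program, its strand setting and the genome build were not given in the sources used here. Of 22548 genes, 15231 have the same chromosome, start, end and strand as GENCODE M21 on GRCm38, among them 30 of the 44. The deposited table holds read counts per gene (used here), and the authors' FPKM, normalized signal and comparison columns (fold change on a log2 scale and p-values), which were not used.

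Counts were tested with edgeR 4.0.16 (filterByExpr, TMM, quasi-likelihood test, Benjamini-Hochberg over 16186 genes) in R 4.3.3, on all 10 libraries without covariates. The script was tested on simulated counts drawn independently for each gene, a setting without libraries that shift many genes together. Intervals are 95%, from the standard error and the quasi-likelihood degrees of freedom. DESeq2 1.42.0, other scalings, filters and left-out libraries were alternatives. DESeq2 gave 17638 genes an adjusted p, and its missing values were left as such. CPM per kilobase used the table's gene length. The per-mouse values were given for Mki67, Pcna, the gene with the highest level per length and that with the smallest p in each of 11 role groups. Members and lists were chosen with earlier results of these data known. Of the 44 genes, 12 overlap another gene, 11 of them on the opposite strand, and reads of such pairs may be shared. Knl1, Jchain and Fcmr were matched by gene ID.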

Additional observations from a re-analysis of the deposited data

Results flagged for a closer look

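In each group of 5 mice, the log2 CPM of every one of the 44 genes and of their mean was examined for a library far from the others, by the gap to the nearest value over the whole range (above 0.71). Of 90 sets, 41 held such a library, 38 of them MM 6 on the low side and 3 No MM 1. Chance would give about 1 in 20 sets, or 4.5, but the sets share the same 10 libraries and are not independent. Over all tested genes, MM 6 lay this far below the other MM mice in 4.05%. In MM 6 the log2 CPM was 7.32 for Top2a, 6.47 for Ccna2, 5.01 for Ccnb1, 5.76 for Ccnb2, 5.94 for Cdk1, 4.52 for Aurka, 4.85 for Aurkb, 4.59 for Plk1, 5.92 for Birc5, 3.33 for Ttk, 4.30 for Bub1, 5.31 for Bub1b, 4.83 for Cdc20, 5.88 for Ube2c, 5.80 for Cenpa, 3.92 for Ndc80, 5.87 for Kif11, 5.02 for Kif20a, 5.80 for Tpx2 and 5.83 for Nusap1. It was also low in MM 6 for Prc1 (6.00), Mcm2 (5.89), Mcm3 (5.82), Mcm4 (5.93), Mcm5 (6.11), Mcm6 (6.63), Mcm7 (6.49), Cdc6 (4.58), Gins2 (3.20), Rrm1 (6.85), Rrm2 (6.67), Tyms (4.92), Tk1 (5.76), Ccne1 (4.24), E2f1 (4.16), E2f8 (4.94) and Foxm1 (5.04), and for the mean of the 44 genes (5.43). In No MM 1 it was high for Ccnb1 (7.39), Bub1b (7.10) and Tpx2 (7.81). No explanation was tested.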

How the results depend on the processing

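No paired analysis was possible because the labels number the mice 1 to 5 and 6 to 10 and match no mouse of one group with one of the other. In all 9 alternatives and 10 fits leaving out 1 library, 0 of the 44 genes had an adjusted p under 0.05, with a smallest adjusted p of 0.150 (Mcm6 without No MM 5). At an unadjusted p under 0.05, 1 gene was higher in MM with total counts only (Cenpe), and from 0 to 3 (without MM 6) over the leave-one-out fits, and from 0 to 1 lower (Mcm6 without No MM 5). Leaving out No MM 1 and MM 6 together was chosen after seeing the data, on the values of these genes. Dropping the highest control and the lowest MM mouse raises the fold change by construction. It gave 12 genes higher at an unadjusted p, 0 at an adjusted p and a median of 0.31, and nothing is supported by it. Over the leave-one-out fits the median minus that of all genes ran from -0.16 to 0.15 and the number of positive genes from 6 to 35. Mki67 ranked 1 by CPM and 3 per kilobase.

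Log2 fold changes that changed sign were as follows. With DESeq2 the value was Gins2 0.012, with RLE scaling Gins2 0.0097, with upper-quartile scaling Gins2 0.0095, and with at least 10 counts in every library Gins2 0.0094. With immunoglobulin genes left out they were Birc5 -0.0040 and Rrm2 -0.015. Without No MM 3 and No MM 4 they were Top2a -0.064, Ccna2 -0.20, Birc5 -0.24, Cenpa -0.20, Ndc80 -0.036, Kif11 -0.0055, Kif23 -0.034, Rrm2 -0.39 and Foxm1 0.073. With total counts only, which moved all genes up, they were Ccnb1 0.10, Ccnb2 0.26, Cdk1 0.23, Aurka 0.12, Aurkb 0.20, Ttk 0.29, Bub1b 0.21, Cdc20 0.093, Ube2c 0.051, Kif20a 0.20, Tpx2 0.15, Nusap1 0.24, Prc1 0.11, Mcm2 0.060, Mcm3 0.076, Mcm4 0.29, Mcm5 0.15, Mcm7 0.040, Cdc6 0.0029, Cdt1 0.25, Gins2 0.29, Pcna 0.18, Rrm1 0.051, Tyms 0.24, Tk1 0.19, Ccne1 0.24, E2f1 0.31 and Foxm1 0.29. Without No MM 1 and MM 6, which moves values up by construction, they were Ccnb1 0.28, Ccnb2 0.50, Cdk1 0.41, Aurka 0.32, Aurkb 0.17, Plk1 0.13, Ttk 0.15, Bub1b 0.22, Cdc20 0.12, Ube2c 0.32, Kif20a 0.27, Tpx2 0.26, Nusap1 0.37, Mcm2 0.18, Mcm3 0.20, Mcm4 0.38, Mcm5 0.55, Mcm7 0.30, Cdc6 0.017, Cdt1 0.35, Gins2 0.41, Pcna 0.18, Rrm1 0.25, Tyms 0.53, Tk1 0.35, Ccne1 0.48, E2f1 0.22 and Foxm1 0.086. Over the fits leaving out 1 library, the lowest and highest values were -0.33 and 0.14 for Aurka, -0.24 and 0.028 for Aurkb, -0.092 and 0.24 for Birc5, -0.049 and 0.22 for Bub1, -0.20 and 0.053 for Bub1b, -0.0087 and 0.37 for Ccna2, -0.34 and 0.081 for Ccnb1, -0.21 and 0.32 for Ccnb2, -0.21 and 0.27 for Ccne1, -0.082 and 0.28 for Ccne2, -0.22 and 0.23 for Cdk1, -0.20 and 0.20 for Cdt1, -0.16 and 0.10 for E2f1, -0.17 and 0.063 for Foxm1, -0.17 and 0.24 for Gins2, -0.037 and 0.28 for Kif11, -0.22 and 0.11 for Kif20a, -0.40 and 0.029 for Mcm3, -0.13 and 0.22 for Mcm4, -0.35 and 0.37 for Mcm5, -0.44 and 0.15 for Mcm7, -0.019 and 0.34 for Mki67, -0.067 and 0.21 for Ndc80, -0.20 and 0.19 for Nusap1, -0.31 and 0.0055 for Pcna, -0.40 and 0.074 for Rrm1, -0.15 and 0.37 for Rrm2, -0.27 and 0.18 for Tk1, -0.046 and 0.24 for Top2a, -0.28 and 0.086 for Tpx2, -0.14 and 0.12 for Ttk, -0.23 and 0.36 for Tyms and -0.42 and 0.13 for Ube2c. These genes had no adjusted call in any fit, and the causes of the changes of sign were not tested.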
